A study of Mus musculus with 30 samples.

Results

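The 32 genes described here are endothelial identity genes, which mark the cells that line blood and lymph vessels. They were chosen by symbol from the 23060 genes of the expression table, and all 32 have a row. The study converted adult mouse endothelial cells to blood-forming cells with Fosb, Gfi1, Runx1 and Spi1 (FGRS) and measured RNA by poly-A selected sequencing. The question asked of these genes is how much endothelial expression is left in the converted cells in culture, in the stem cells found in marrow after transplantation, and in blood. Of the 30 libraries, 29 fall into 11 groups. The native marrow group holds 3 control LKS-SLAM libraries annotated as wild type and freshly isolated. LKS-SLAM is a sort for lineage-negative, Kit-positive, Sca-1-positive cells with SLAM surface markers, a gate that enriches blood stem cells. The matching derived group holds 3 rEC LKS-SLAM libraries annotated as derived. Of these, replicate 2 comes from clone 47G1 in a primary recipient and replicate 3 from a secondary recipient, so the group mixes 3 histories. The culture group, FGRS culture for short, holds 3 libraries of adherent cells sorted as KLS (the same gate without SLAM markers) at day 28, annotated as derived and grown with HUVEC, which are human umbilical vein endothelial cells. How reads from such human cells were treated is not given in the sources used here, and their part in the culture values of these genes was not tested. Cdh5, Kdr and Nos3, which endothelial cells carry, were each below 1 FPKM in all 3 cultures. Other members were not low there: 8 of the 32 had a culture mean of at least 1 FPKM. Among them were Egfl7 (80.9), Icam2 (45.1), Cd93 (38.0), Pecam1 (26.7) and Eng (14.5). The blood groups, each split into control and rEC, are B cells sorted on B220 (3 and 3 libraries), CD8 and CD4 T cells (3 and 3, 2 and 2) and myeloid cells sorted on Gr1 with Cd11b (2 and 2). Some rEC B and T cell libraries are also titled as secondary, and 1 rEC B cell library is titled as clone 47G1. The labels do not say that the replicates are separate animals or cultures, so the p-values measure the spread between these libraries, which may be in part technical. No library of unconverted endothelial cells was analysed here, so there is no reference for a full endothelial level.

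Endothelial cells hold to each other through VE-cadherin, claudin and immunoglobulin-family adhesion molecules, and take growth signals through VEGF receptors and the TIE receptors for angiopoietins. Transcription factors of the ETS, SOXF and GATA families turn on much of this programme. In the embryo the first blood stem cells arise from specialised endothelium, and adult stem cells share part of the set with vessels, among them the receptors Tie1, Tek and Eng and the junction protein Esam. Such transcripts are therefore found in stem cells of ordinary origin too.

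Start-site sequence from RefSeq (GRCm38.p6, the assembly also named mm10) was used for 16 members in 19 windows of 250 bases before a transcript start. Those of 5 members are printed because they span the range of what was seen in FGRS culture. Tie1, Tek and Robo4 were lower there than in marrow, Egfl7 overlapped the marrow levels, and Stab1 was higher. Capitals mark GGAAG, the form of the ETS core searched here, on either strand (CTTCC when read on the other strand). Each window is written 5′ to 3′ on the strand of its gene. Other forms of the core were not searched, and the shorter GGAA does occur on the other strand of the Tek window (TTCC as printed).
Tie1, chr4:118489850-118490099, minus strand: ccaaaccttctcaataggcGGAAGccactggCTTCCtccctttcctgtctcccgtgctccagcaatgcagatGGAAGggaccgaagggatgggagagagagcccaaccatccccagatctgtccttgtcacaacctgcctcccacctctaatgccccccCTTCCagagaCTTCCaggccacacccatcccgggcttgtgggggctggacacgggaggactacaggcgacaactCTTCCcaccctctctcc
Tek, chr4:94739039-94739288, plus strand: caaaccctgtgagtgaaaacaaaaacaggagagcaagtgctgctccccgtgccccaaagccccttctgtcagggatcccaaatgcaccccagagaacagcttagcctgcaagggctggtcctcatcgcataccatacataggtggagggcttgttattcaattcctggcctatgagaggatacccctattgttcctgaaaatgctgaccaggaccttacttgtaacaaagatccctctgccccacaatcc
Robo4, chr9:37401722-37401971, plus strand: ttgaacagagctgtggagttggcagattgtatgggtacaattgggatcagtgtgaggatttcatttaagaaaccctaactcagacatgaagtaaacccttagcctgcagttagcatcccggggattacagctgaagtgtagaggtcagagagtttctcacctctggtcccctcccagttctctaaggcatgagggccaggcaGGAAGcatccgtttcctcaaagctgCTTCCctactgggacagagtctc
Egfl7 first start, chr2:26580833-26581082, plus strand: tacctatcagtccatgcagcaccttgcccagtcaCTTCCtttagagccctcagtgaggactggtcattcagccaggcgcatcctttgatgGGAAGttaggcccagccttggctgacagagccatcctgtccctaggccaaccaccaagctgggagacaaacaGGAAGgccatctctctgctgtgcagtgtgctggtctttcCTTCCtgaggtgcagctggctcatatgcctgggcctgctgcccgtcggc
Egfl7 second start, chr2:26583615-26583864, plus strand: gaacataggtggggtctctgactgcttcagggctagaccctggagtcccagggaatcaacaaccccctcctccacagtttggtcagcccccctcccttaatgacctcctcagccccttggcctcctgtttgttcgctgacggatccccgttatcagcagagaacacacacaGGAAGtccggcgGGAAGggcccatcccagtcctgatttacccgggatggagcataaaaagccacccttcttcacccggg
Stab1, chr14:31168642-31168891, minus strand: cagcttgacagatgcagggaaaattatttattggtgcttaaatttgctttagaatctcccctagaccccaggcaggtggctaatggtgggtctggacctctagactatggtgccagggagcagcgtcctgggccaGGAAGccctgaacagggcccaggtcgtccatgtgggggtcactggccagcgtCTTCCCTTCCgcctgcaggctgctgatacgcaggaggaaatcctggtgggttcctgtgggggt

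GGAAG stood 6 times in the Tie1 window, 2 times in that of Robo4, 3 times in that of Stab1 and 4 times and 2 times in the 2 Egfl7 windows shown. It was not in the Tek window, nor, among those not shown, in the third window of Egfl7, both of Cav1 or that of Cldn5. Over the members it stood in 14 of 19 windows (73.7%), against 64.1% of 32851 mouse windows of the same length. Chromosome 18, which holds Ecscr, was left out for the members, a limit not set for the mouse windows. The SOX core ACAAT, searched on both strands, stood in 4 of the 19, among them 2 matches each at Tek and Robo4, and in 27.7% of all windows. The GATA core AGATAA, searched likewise, stood in 0 of the 19 and in 9.99% of all windows. These matches are letters in a window and say nothing about binding.

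Values are FPKM, fragment counts scaled by transcript length and by the mapped fragments of the library, so levels of different genes are compared per length. Differences are on the log2(FPKM + 1) scale with their standard error (SE), which understates the change of genes near 0. Adjusted p-values come from limma's moderated test with Benjamini-Hochberg adjustment over the 14083 genes that reached 1 FPKM in at least 2 libraries. Of the 32 members 26 passed that filter. Sequencing depth, read from the size of the smallest steps in the values, ran from 0.586 to 1.13 relative to a reference library, and the totals themselves are not given in the sources used here. Among 4106 genes with a median of at least 20 FPKM, 23 were listed at 0 in at least 1 library, so a 0 is written as listed. Some libraries stood apart. Replicate 2 of rEC LKS-SLAM had a summed level of 10 stem cell markers of 120 FPKM, against 534 to 873 in the other 5 LKS-SLAM libraries, with 2552 FPKM over 8 erythroid markers (32.3 to 1108 in the other 5) and 347 over 10 macrophage markers (31.1 to 36.3). Replicate 1 of rEC B cells carried 1626 FPKM over 7 T cell markers beside 1716 over 5 B cell markers. Control CD8 T cells carried 469, 304 and 197 FPKM over the same B cell markers, against 6.74 to 61.8 in rEC CD8 T cells. The part of B cells in the control CD8 values was not tested. In control LKS-SLAM, 10 stromal markers summed to 166, 284 and 20.1 FPKM. In bulk RNA, fewer cells of a type and less RNA per cell cannot be told apart.

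**Figure D1:**
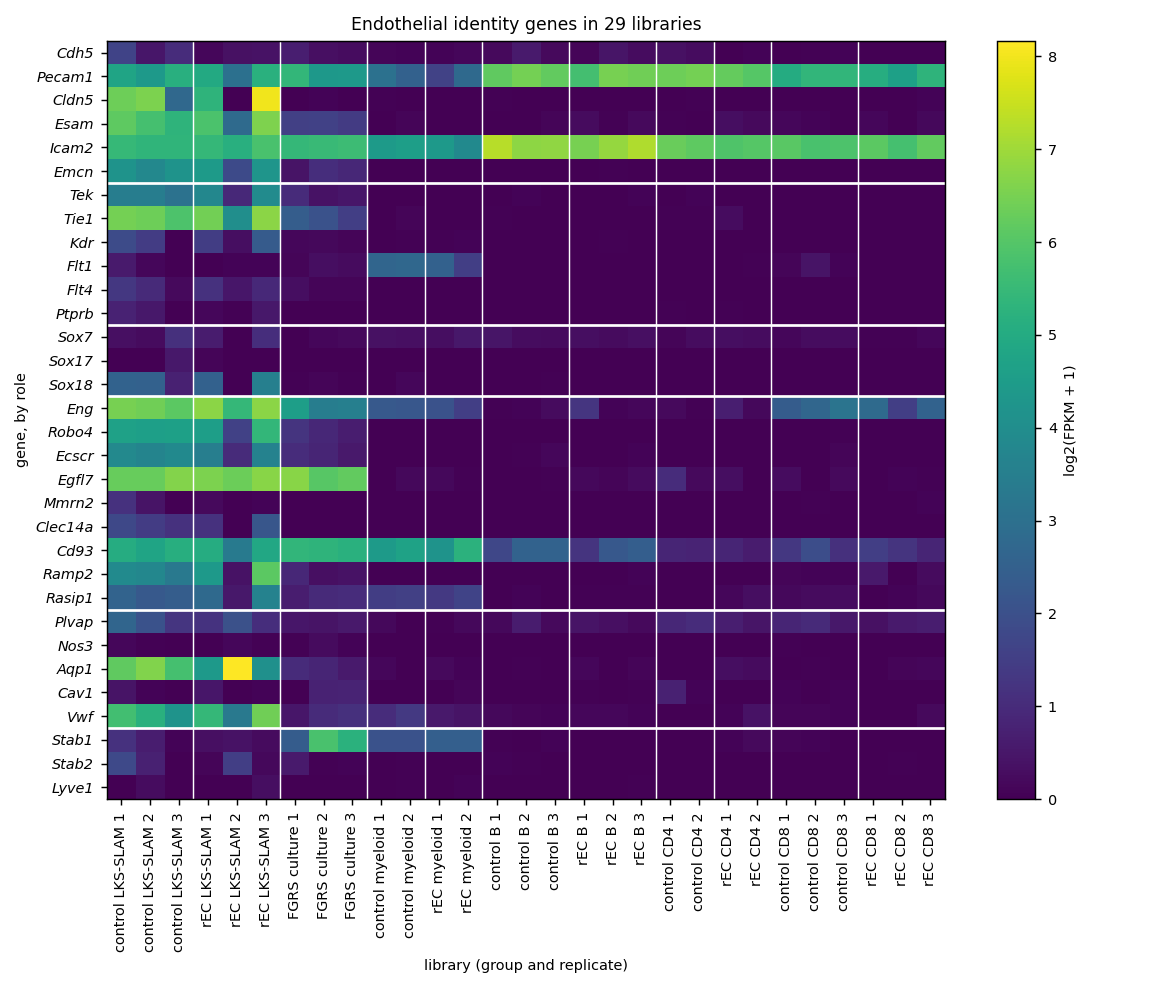
Each row is a member, grouped by role between white lines, each column 1 of 29 libraries, and the colour is log2(FPKM + 1). Most members stand out in the LKS-SLAM columns other than rEC replicate 2, where 14 of the 32 reached 1 FPKM. Pecam1 and Icam2 are at their brightest in B cell or T cell libraries.

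Most of the set was at its highest in marrow LKS-SLAM cells and low in FGRS culture and blood. A group mean of at least 1 FPKM was reached by 22 of the 32 members in control LKS-SLAM, 20 in rEC LKS-SLAM, 8 in FGRS culture, 8 in control myeloid cells, 3 in control B cells, 2 in control CD4 T cells and 4 in control CD8 T cells. The highest group mean lay in an LKS-SLAM group for 25 members, in FGRS culture for 4 (Cd93, Stab1, Nos3 and Cav1, the last pair below 1 FPKM) and in a blood group for 3 (Pecam1, Icam2 and Flt1). FGRS culture was lower than control LKS-SLAM for 18 of the 26 members tested and higher for 1, Stab1. Over all genes tested, 31.7% were lower and 17.1% higher in that comparison. The median difference of the 26 was -1.52, against -0.19 over all genes. Some members passed the filter only through LKS-SLAM libraries, among them Cldn5, Clec14a, Ramp2, Sox18, Kdr, Cdh5 and Flt4. For these a lower level in culture was close to fixed in advance. The counts and medians against control and rEC LKS-SLAM are therefore partly set by the filter. Culture and control libraries did not overlap for 18 of the 26 (69.2%), and for 58.6% of all genes, so most genes were without overlap here. With quantile normalisation 13 members were lower and 1 higher, beside 2864 lower and 2944 higher of the 14083 genes tested. Of all called genes 50.7% were then higher, against 35.1% without it. Against rEC LKS-SLAM 17 were lower and again Stab1 was higher (over all genes 27.8% lower and 17.2% higher), with a median of -1.33 against -0.14. In that comparison 13 of the 26 members (50%) and 33.3% of all genes did not overlap. The 2 comparisons share the FGRS libraries. Beside these counts, the 10 stem cell markers also moved: 9 were lower in FGRS culture than in control LKS-SLAM and 0 higher, and their sum was 116 to 163 FPKM.

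Junction and adhesion genes fell into those that were low in FGRS culture and those that overlapped the marrow levels. Esam, an immunoglobulin-family protein of tight junctions, was at 69.7, 53.4 and 38.6 FPKM in control LKS-SLAM, 57.5, 6.10 and 96.2 in rEC LKS-SLAM and 1.93, 1.997 and 1.69 in FGRS culture. All 6 marrow libraries lay above all 3 cultures, and the difference from control was -4.22 (SE 0.52, adjusted p = 2.38e-06). Cldn5, the claudin that seals endothelial tight junctions, was at 81.7, 93.6 and 5.73 in control, 39.0, 0 and 255 in rEC LKS-SLAM and 0, 0.0605 and 0 in FGRS culture. The marrow libraries were far apart from each other for this gene, yet the 3 controls were above the cultures and the difference was -5.20 (SE 1.15, adjusted p = 0.000936). Emcn, the sialomucin endomucin, was at 17.4, 13.1 and 17.2 in control, 21.0, 2.53 and 18.1 in rEC LKS-SLAM and 0.347, 1.08 and 0.884 in FGRS culture (difference from control -3.26, SE 0.39, adjusted p = 1.69e-06). Cdh5, which encodes VE-cadherin, was low in every group: 2.16, 0.421 and 1.04 in control, 0.102, 0.277 and 0.305 in rEC LKS-SLAM and 0.610, 0.261 and 0.215 in FGRS culture. Its difference from control (-0.63, SE 0.20, adjusted p = 0.0119) was lost when the fit held only the groups compared (adjusted p = 0.133) and with quantile normalisation (-0.06, adjusted p = 0.808).

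Pecam1 and Icam2, adhesion molecules that blood cells also carry, did not pass the test between marrow and culture. Pecam1 (CD31) was at 26.1, 20.4 and 34.9 FPKM in control LKS-SLAM, 30.2, 7.09 and 35.1 in rEC LKS-SLAM and 41.0, 19.4 and 19.7 in FGRS culture. Icam2 was at 43.4, 39.9 and 40.0, then 42.1, 34.4 and 55.8, and in culture 42.6, 45.2 and 47.6. For both genes the groups overlapped, and the differences of FGRS culture from control were -0.08 (SE 0.42) for Pecam1 and 0.13 (SE 0.19) for Icam2.

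Of the receptor kinases, the angiopoietin receptor pair was expressed in marrow and lower in culture, and the VEGF receptors were low throughout. Tie1 (chr4:118471191-118490061) was at 87.9, 82.3 and 58.4 FPKM in control LKS-SLAM, 84.4, 15.5 and 108 in rEC LKS-SLAM and 4.36, 3.17 and 1.85 in FGRS culture. The cultures lay below every marrow library, with a difference from control of -4.25 (SE 0.41, adjusted p = 1.07e-07) and from rEC LKS-SLAM of -3.75 (SE 0.41, adjusted p = 3.83e-07). Tek (TIE2, chr4:94739289-94874976), the receptor that angiopoietins bind, was at 10.1, 10.1 and 7.37, then 12.7, 0.913 and 14.4, and in culture 1.01, 0.328 and 0.423. The replicate from clone 47G1 fell among the cultures for Tek, while the 3 controls were above them (-2.70, SE 0.44, adjusted p = 5.69e-05). Kdr, the main VEGF receptor of endothelium, was at 2.68, 1.73 and 0 in control, 1.80, 0.231 and 4.08 in rEC LKS-SLAM and 0.103, 0.139 and 0.0808 in FGRS culture. Its lower level in culture (-0.96, SE 0.37, adjusted p = 0.0347) did not pass when any of 5 libraries was left out, with values from -0.58 without control replicate 1 (adjusted p = 0.225) to -0.98 without FGRS replicate 2 (adjusted p = 0.0690). It also did not pass with quantile normalisation (-0.40, adjusted p = 0.125), a pseudocount of 0.1 (adjusted p = 0.0624) or only the groups compared (adjusted p = 0.109). Flt1 (VEGFR1) was at or below 0.519 in all 9 of these libraries, and Flt4 (VEGFR3), which had no group mean of 1 FPKM, was at 0.145 to 1.53 in control and 0.0753 to 0.232 in culture (-0.66, SE 0.20, adjusted p = 0.00856, and -0.15, adjusted p = 0.229, with quantile normalisation). Ptprb, the phosphatase that acts on these receptors, was at most 0.737 in any library.

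The SOXF transcription factors, which drive vessel gene expression, were at or near 0 in culture. Sox18 was at 4.99, 4.78 and 0.668 FPKM in control LKS-SLAM, 4.79, 0 and 10.6 in rEC LKS-SLAM and 0.0272, 0.0777 and 0.0249 in FGRS culture. Control and culture did not overlap (-1.89, SE 0.53, adjusted p = 0.00605). Sox7 was at 0.177 to 1.18 in control and at 0 to 0.162 in culture, and its difference did not pass (-0.44, SE 0.21, adjusted p = 0.0886). Sox17 was listed at 0 in 27 of the 29 libraries and at most 0.428, and was not tested.

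Among the other receptors and ligands, 6 of the 8 tested were lower in culture than in control, and Egfl7 and Cd93 did not pass. Egfl7 (chr2:26580014-26593120), a secreted protein made by endothelium that also hosts a microRNA, was at 75.4, 77.0 and 100.2 FPKM in control LKS-SLAM, 93.9, 79.8 and 104 in rEC LKS-SLAM and 104, 65.1 and 73.5 in FGRS culture. The 3 groups overlapped and the difference of culture from control was -0.07 (SE 0.20, adjusted p = 0.786). The library of clone 47G1 was within the control range for this gene. Cd93, a receptor shared by endothelium, early blood cells and myeloid cells, was at 32.2, 26.4 and 34.0, then 32.3, 9.29 and 28.8, and in culture 40.2, 38.9 and 35.0. The cultures lay above all 6 marrow libraries, but neither difference passed after adjustment (0.30, SE 0.38, from control, and 0.85, SE 0.38, adjusted p = 0.0749, from rEC LKS-SLAM).

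Eng, the TGF-beta co-receptor endoglin, was lower in culture without being lost. It was at 89.4, 82.7 and 67.8 FPKM in control, 106, 42.9 and 107 in rEC LKS-SLAM and 22.8, 10.0 and 10.5 in FGRS culture, so that the groups did not overlap (-2.48, SE 0.38, adjusted p = 3.04e-05, from control). Robo4 (chr9:37401897-37415115), a guidance receptor found on vessels and stem cells, was at 24.8, 23.6 and 23.8 in control, 23.0, 1.99 and 41.8 in rEC LKS-SLAM and 1.35, 0.865 and 0.583 in culture. The 3 controls were within a narrow range and far above the cultures (-3.72, SE 0.52, adjusted p = 9.29e-06). Ramp2, the adrenomedullin receptor subunit, was at 14.0, 12.8 and 8.89, then 20.6, 0.327 and 67.4, and in culture 0.864, 0.275 and 0.316 (-3.12, SE 0.75, adjusted p = 0.00179). Ecscr, an endothelial surface regulator of cell movement, was at 13.2, 11.8 and 13.8, then 10.2, 1.03 and 11.2, and in culture 1.06, 0.809 and 0.466 (-2.98, SE 0.38, adjusted p = 3.86e-06).

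Rasip1 and Clec14a were lower from modest marrow levels. Rasip1, a Ras-binding protein needed for vessel lumens, was at 5.10, 3.83 and 4.28 FPKM in control, 5.86, 0.429 and 11.3 in rEC LKS-SLAM and 0.587, 0.943 and 1.03 in culture. Clec14a, a C-type lectin of endothelium, was at 2.44, 1.76 and 1.22, then 1.24, 0 and 3.50, and was listed at 0 in all 3 cultures. In both genes the controls lay above the cultures (-1.55, SE 0.42, adjusted p = 0.00474 for Rasip1 and -1.47, SE 0.30, adjusted p = 0.000430 for Clec14a). Rasip1 did not pass with quantile normalisation (-0.85, adjusted p = 0.0742). Mmrn2, an extracellular partner of Clec14a and Cd93, reached 1.23 in control replicate 1 and was at most 0.354 in every other library.

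Aqp1 and Vwf were the haemostasis and transport genes with high marrow levels. Aqp1, a water channel of endothelium and red cells, was at 71.6, 97.9 and 53.7 FPKM in control LKS-SLAM, 20.3, 287 and 16.2 in rEC LKS-SLAM and 1.02, 0.816 and 0.511 in FGRS culture. It had the largest drop of all members from control to culture (-5.37, SE 0.59, adjusted p = 5.28e-07). The 287 FPKM stood in the library of clone 47G1, which also had the highest erythroid marker sum. In culture that sum was 2.09 to 4.34 FPKM, with all 8 erythroid markers lower than in control. The other marrow libraries did not follow that order. Control replicate 3 had a sum of 1108 FPKM beside the lowest control Aqp1. In rEC replicates 1 and 3 the sums were 295.5 and 32.3 FPKM beside Aqp1 at 20.3 and 16.2. The part of red cell precursors in the Aqp1 values was not tested. Vwf, the von Willebrand factor of endothelium and megakaryocyte-primed stem cells, was at 50.5, 35.5 and 17.5, then 42.8, 8.91 and 82.4, and in culture 0.423, 1.01 and 1.18 (-4.15, SE 0.46, adjusted p = 6.25e-07). Of 8 megakaryocyte and platelet genes tested, 6 were lower in culture than in control LKS-SLAM and 0 higher, with Pf4 at 58.2, 818 and 665 in culture and 250, 202 and 19.1 in control. Plvap, the protein of endothelial fenestrae and caveolae, was at 5.27, 3.13 and 1.38, then 1.30, 3.09 and 1.11, and in culture 0.403, 0.344 and 0.487 (-1.49, SE 0.26, adjusted p = 0.000118, and -0.77, adjusted p = 0.0517, with quantile normalisation). Nos3, the endothelial nitric oxide synthase, was at most 0.168 in any library. Cav1, the main caveolar coat protein, was at 0, 0.726 and 0.745 in culture and at most 0.690 elsewhere.

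**Figure D2:**
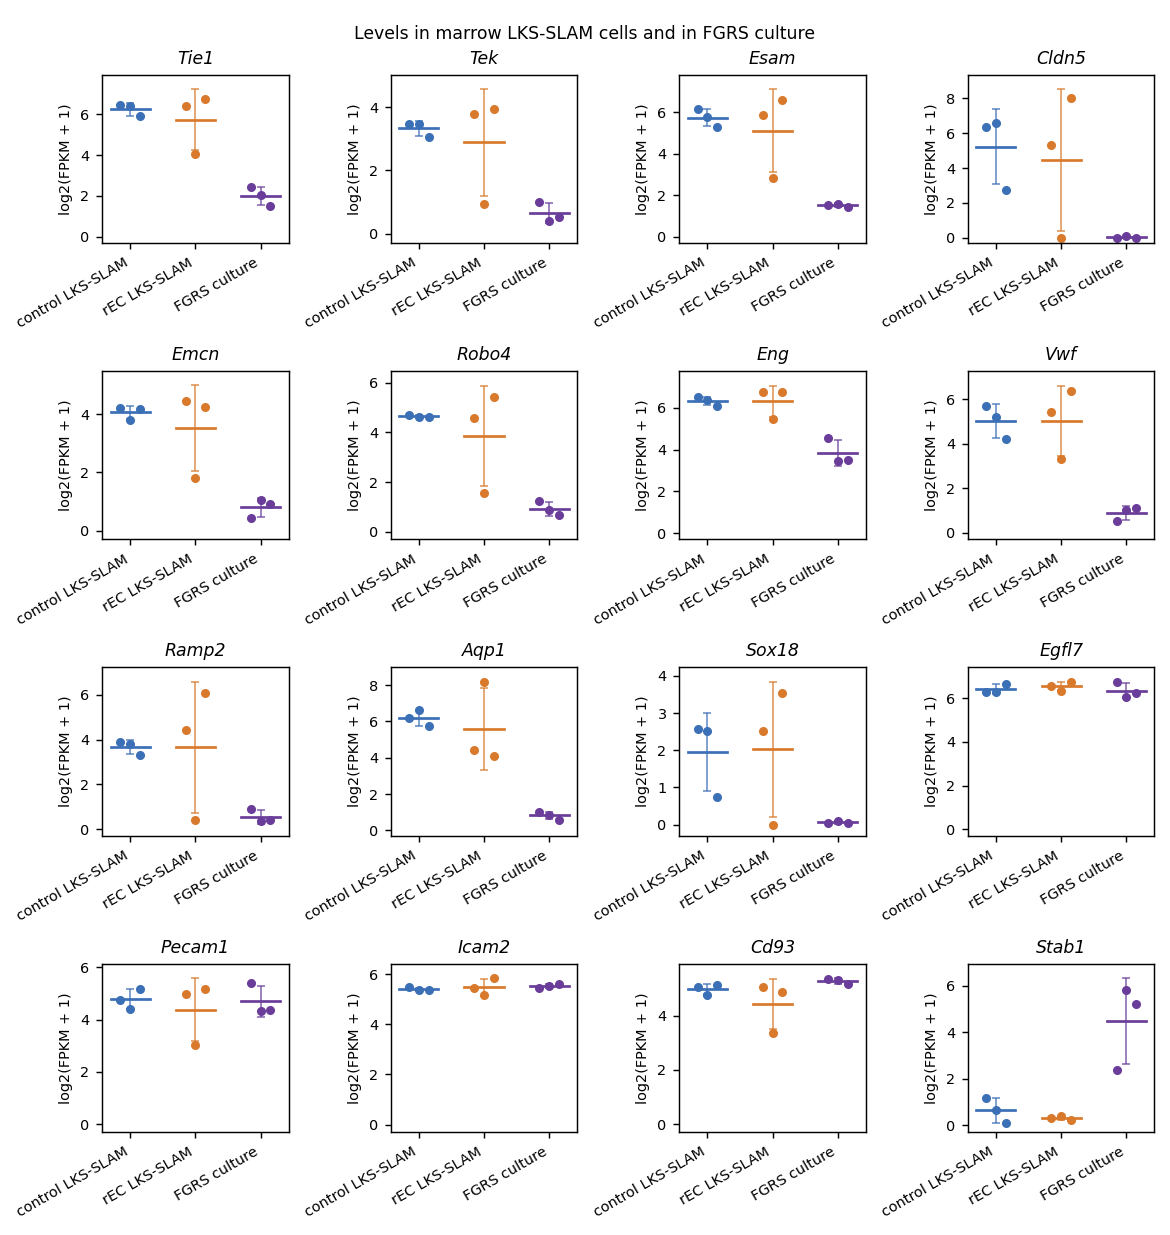
Each panel is 1 member, each point 1 library on the log2(FPKM + 1) scale, with the mean (line) and SD (bar) of 3 libraries per group. The first 11 genes have a lower mean in FGRS culture than in both marrow groups, the groups overlap for Egfl7, Pecam1 and Icam2, and for Cd93 and Stab1 all 3 culture points lie above the marrow points.

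Against rEC LKS-SLAM the lower members were the same as against control except for Cdh5, which was low in both and did not pass (0.14, SE 0.20). The 12 largest of the 17 ran from -4.74 (Aqp1, SE 0.59) to -1.89 (Ecscr, SE 0.38). Those with the smallest error relative to their size were Tie1, Vwf (-4.17, SE 0.46, adjusted p = 4.32e-07) and Aqp1 (adjusted p = 1.87e-06). The replicate of clone 47G1 fell within the range of the cultures for Cldn5, Tek, Ecscr, Clec14a and Ramp2. For Sox18 and Rasip1 it lay below every culture, opposite to the difference of the groups. In a fit of only these 2 groups 5 of 21 members passed: Aqp1, Eng, Tie1 and Vwf lower and Stab1 higher. Over all genes 7.12% were called in that fit, against 45% in the main fit. Without rEC replicate 3, Kdr (-0.74, adjusted p = 0.101), Rasip1 (-0.77, adjusted p = 0.102) and Sox18 (-1.21, adjusted p = 0.0583) did not pass.

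**Figure D3:**
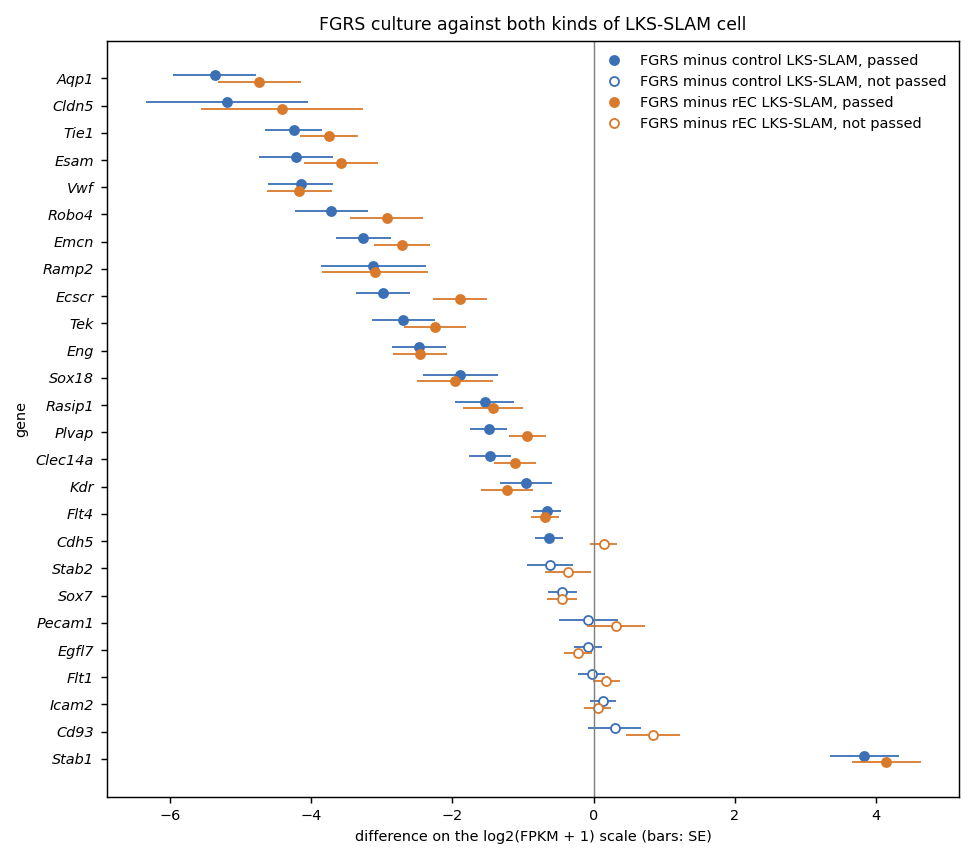
Points are the differences of FGRS culture from control LKS-SLAM (blue) and from rEC LKS-SLAM (orange) on the log2(FPKM + 1) scale for the 26 members tested, with SE bars, and filled points passed at an adjusted p of 0.05. Values run from -5.37 for Aqp1 to 3.84 for Stab1 against control, with Pecam1, Icam2, Egfl7 and Cd93 near 0.

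The scavenger and lymphatic receptors held the 1 member that rose. Stab1 (chr14:31139013-31168641), a scavenger receptor of sinusoidal endothelium and of tissue macrophages, was at 1.23, 0.582 and 0.0612 FPKM in control LKS-SLAM, 0.255, 0.325 and 0.176 in rEC LKS-SLAM and 4.22, 55.8 and 35.8 in FGRS culture. All 3 cultures were above all 6 marrow libraries (3.84, SE 0.49, adjusted p = 3.25e-06, from control, and 4.15, SE 0.49, adjusted p = 9.81e-07, from rEC LKS-SLAM). The 3 cultures were themselves far apart, and the 10 macrophage markers summed to 180, 1341 and 721 FPKM in the same order. Outside culture the 2 did not go together. Control myeloid libraries had macrophage sums of 755 and 731 FPKM beside a mean Stab1 of 3.18. In rEC LKS-SLAM replicate 2 the sum was 347 FPKM beside Stab1 at 0.325. Of 9 macrophage markers tested, 7 were higher and 1 lower in culture than in control LKS-SLAM, among them C1qb (18.6, 367 and 145 FPKM in culture, at most 3.83 in control), Mrc1 (3.83, 66.4 and 37.0, at most 2.46) and Csf1r (51.2, 108 and 84.9, at most 6.32), while Marco was at most 0.411. The part of macrophages in the Stab1 values was not tested. Stab2, the relative that clears hyaluronan in liver sinusoids, was at 2.49, 0.695 and 0 in control, 0.0733, 1.86 and 0.130 in rEC LKS-SLAM and 0.490, 0.0369 and 0.0580 in culture, and did not pass (-0.62, SE 0.32, adjusted p = 0.119). Lyve1, the hyaluronan receptor of lymphatic vessels, was at most 0.231 in any library.

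**Figure D4:**
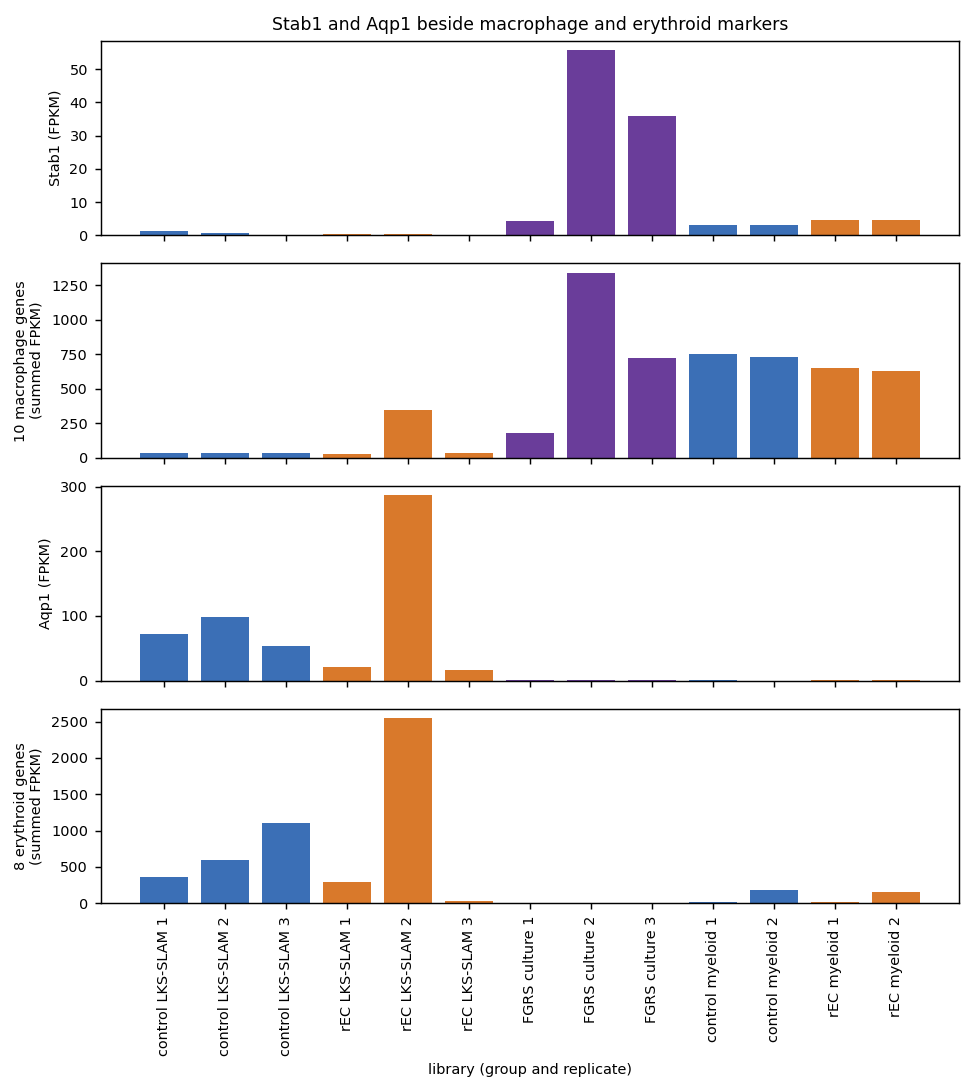
Bars are the 13 marrow, culture and myeloid libraries, and the rows give Stab1, the summed level of 10 macrophage genes, Aqp1 and the summed level of 8 erythroid genes, all in FPKM. Stab1 and the macrophage sum are both highest in FGRS culture replicate 2 (55.8 and 1341), and Aqp1 and the erythroid sum in rEC LKS-SLAM replicate 2 (287 and 2552). In the myeloid libraries the macrophage sum is 626 to 755, with group means of Stab1 of at most 4.53. Control LKS-SLAM replicate 3 has the next highest erythroid sum (1108) and the lowest Aqp1 of the control LKS-SLAM libraries.

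Against mature myeloid cells the culture had more of some members, led by Egfl7. FGRS culture was higher than control Gr1+Cd11b+ cells for 7 of the 26 members and lower for 1, with 37.8% of all genes higher and 20.3% lower, so the count of members lay below the background. The median was 0.59 against 0.25 over all genes. With quantile normalisation 6 members were higher and 3 lower, beside 4051 higher and 3970 lower of the 14083 genes tested. Egfl7 had the largest difference (6.24, SE 0.22, adjusted p = 6.13e-15), with 0 and 0.125 FPKM in the 2 myeloid libraries and no fewer than 65.1 in culture. Stab1 was at 3.15 and 3.20 in myeloid cells (2.41, SE 0.55, adjusted p = 0.000632), Pecam1 at 7.29 and 4.82 (1.91, SE 0.46, adjusted p = 0.00124) and Eng at 3.85 and 3.61 (1.61, SE 0.43, adjusted p = 0.00266). Tie1 (1.93, SE 0.46, adjusted p = 0.000991), Icam2 (1.004, SE 0.21, adjusted p = 0.000273) and Esam (1.47, SE 0.58, adjusted p = 0.0355) were the others. Myeloid Tie1 was at 0.0119 and 0.0868 and Esam at 0 and 0.0726, so that both were above the myeloid libraries at the few FPKM seen in culture. Culture and control myeloid libraries did not overlap for 84.6% of the members tested and 77.6% of all genes. Esam did not pass in 8 alternatives, with adjusted p from 0.0549 to 0.132, and Stab1 did not pass in the fit of only these 2 groups (adjusted p = 0.0594). Flt1 was the 1 member higher in myeloid cells, at 5.40 and 5.67 FPKM against 0.0759, 0.247 and 0.192 in culture (-2.48, SE 0.21, adjusted p = 2.45e-09). The count rose to 15 without rEC LKS-SLAM replicate 2 and rEC B cell replicate 1, which are not among the libraries compared, and 66.3% of all genes were then called.

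Native stem cells carried far more of the set than native blood. Control LKS-SLAM was above the mean of the 4 control blood groups for 21 of the 26 members and below it for 2, with 42.6% of all genes above and 19.9% below. The median was 2.34, against 0.28 over all genes. Members that passed the filter only through LKS-SLAM libraries, such as Cldn5 and Clec14a, could hardly come out below blood. The count and median are therefore partly set by the filter. The largest were Tie1 (6.22, SE 0.33, adjusted p = 1.48e-12), Egfl7 (6.18, SE 0.16, adjusted p = 1.09e-17), Aqp1 (6.16, SE 0.47, adjusted p = 4.52e-10), Esam (5.69, SE 0.42, adjusted p = 2.57e-10) and Cldn5 (5.21, SE 0.93, adjusted p = 5.56e-05). Eng (5.02, SE 0.31), Vwf (4.67, SE 0.37), Robo4 (4.64, SE 0.42), Emcn (4.06, SE 0.32), Ecscr (3.77, SE 0.31), Ramp2 (3.65, SE 0.60) and Tek (3.32, SE 0.36) followed, and the other 9 higher members ran from 0.83 (Flt4) to 2.69 (Cd93). Emcn was listed at 0 in all 10 control blood libraries and Clec14a in all 20 blood libraries. Kdr did not pass without control LKS-SLAM replicate 1 (0.72, adjusted p = 0.0637). Cdh5 (0.05, adjusted p = 0.756), Plvap (0.51, adjusted p = 0.0787) and Stab2 (0.24, adjusted p = 0.342) did not pass with quantile normalisation. With that scaling 44.3% of all called genes were higher in LKS-SLAM, against 68.2% without it. The members then split 18 to 3, beside 4133 higher and 5195 lower of the 14083 genes tested.

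A few members had clear levels in blood lineages. Icam2, a ligand of leukocyte integrins, was at 155, 108 and 112 FPKM in control B cells, 77.7 and 70.3 in CD4, 66.2, 55.8 and 58.3 in CD8 and 20.9 and 23.1 in myeloid cells, so that it was below the blood mean in LKS-SLAM (-0.51, SE 0.15, adjusted p = 0.00571). Pecam1 was at 71.3, 88.0 and 73.1 in B, 82.0 and 86.9 in CD4, 31.7, 40.2 and 40.3 in CD8 and 7.29 and 4.82 in myeloid cells. For Pecam1, B and CD4 levels overlapped and CD8 and myeloid levels lay below them. Flt1 was above 0.361 only in myeloid cells among the blood groups, and lower in LKS-SLAM than in the blood mean (-0.48, SE 0.15, adjusted p = 0.00918), a call lost without control LKS-SLAM replicate 2 (-0.43, adjusted p = 0.0510) or replicate 3 (-0.35, adjusted p = 0.0814). Cd93 was at 20.9 and 25.2 in myeloid cells, 2.37, 4.91 and 4.99 in B cells, and 0.769 to 2.81 in the T cell groups. Rasip1 was at 1.81 and 1.93 in myeloid cells and at most 0.200 in control lymphocytes. Eng was at 4.21, 5.47 and 7.78 in CD8 and 3.85 and 3.61 in myeloid cells, and at most 0.189 in control B and CD4 cells. Vwf was at 1.07 and 1.58 in myeloid cells and at most 0.138 in control lymphocytes.

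**Figure D5:**
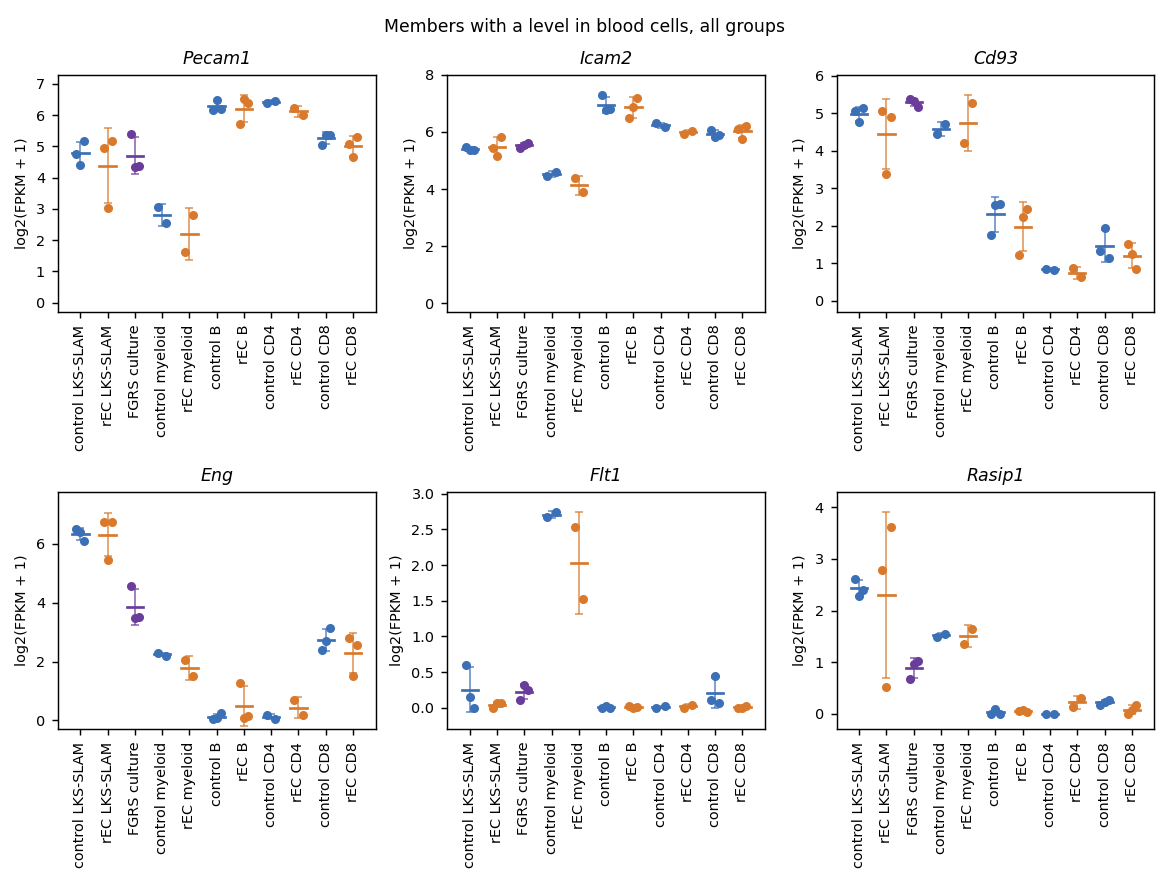
Each panel is 1 member and each point 1 library on the log2(FPKM + 1) scale, with mean and SD for each of the 11 groups. Pecam1 and Icam2 are high in lymphocytes, Flt1 and Rasip1 stand out among blood cells in the myeloid groups, Cd93 is highest in marrow, culture and myeloid cells, and Eng has a low level in CD8 cells.

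Between rEC and control cells of the same kind 0 of the 26 members passed in any of the 5 cell types. Over all genes the share called was 1.32% in LKS-SLAM, 0.227% in myeloid cells, 0% in B cells, 0.0213% in CD4 T cells and 1.13% in CD8 T cells, so that few or none of 26 would be called at the background rate. At an unadjusted p under 0.05, 2 members differed in LKS-SLAM, 1 in myeloid cells and 0 in each of the lymphocyte groups, against 9.41%, 3.73% and 2.83% to 7.46% of all genes, so these counts were near or below the background. In LKS-SLAM the median over the members was -0.33 against -0.05 over all genes. Neutrophil markers moved between the same groups: 5 of 6 were lower in rEC, with sums of 1581 to 2673 FPKM in control and 6.01 to 360 in rEC, and their part in the member values was not tested. The member with the smallest p was Cdh5 (-0.77, SE 0.20, adjusted p = 0.0548), whose 3 rEC libraries lay below all 3 controls. Ecscr was also below control in every rEC library (-1.09, SE 0.38, adjusted p = 0.244). These 2 were the only members tested without overlap between the groups (7.69%), near the 6.44% of all genes. In myeloid cells the smallest p was that of Flt1, at 4.78 and 1.88 FPKM in rEC against 5.40 and 5.67 in control (-0.68, SE 0.23, adjusted p = 0.630), and it passed without rEC replicate 1 (-1.18, adjusted p = 0.00500), a fit that leaves 1 rEC library and takes it to vary like the other groups. Whether the difference between origins itself differed between the 5 cell types was tested with limma's F test, where 0 members passed, with 0 at an unadjusted p under 0.05 (5.05% of all genes) and 0.277% of all genes called.

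The rEC LKS-SLAM result rested on libraries that were far apart. Replicate 2, of clone 47G1, was the lowest of the 6 LKS-SLAM libraries for 17 of the 26 members, against 42.4% of all genes tested, and the highest for Aqp1 alone. Replicate 3, from a secondary recipient, was the highest of the 6 for 15 members, against 30.3% of all genes. Without replicate 2, 6 of 25 members passed, beside 8.94% of all genes: Ramp2 (1.60, SE 0.29, adjusted p = 0.00137), Rasip1 (0.77, SE 0.18) and Tek (0.52, SE 0.15) were higher in the remaining pair of rEC libraries, and Aqp1 (-1.94, SE 0.18, adjusted p = 5.59e-07), Cdh5 (-0.80, SE 0.21) and Plvap (-0.84, SE 0.25) lower. Without replicate 3, Cdh5 (-0.82), Clec14a (-0.89) and Ecscr (-1.54) passed, all lower, beside 2.75% of all genes, and without replicate 1 Ecscr passed (-1.48), beside 2.99%. Without control replicate 2, Cdh5 passed (-1.05, adjusted p = 0.00556, 0.836% of all genes), and without control replicate 3, Plvap (-0.91, adjusted p = 0.0449, 2.34% of all genes). Cdh5 kept a negative difference in each of these. Control replicate 3 and rEC replicate 1 share the label long-term haematopoietic stem cell, and the other 4 LKS-SLAM libraries are labelled haematopoietic stem cell. Within that pair Cdh5 was at 1.04 and 0.102, Aqp1 at 53.7 and 20.3 and Ramp2 at 8.89 and 20.6 FPKM for control and rEC, with no test possible on 1 library each.

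The 3 control LKS-SLAM libraries also differed among themselves. Replicate 1 was the highest of the 3 for 18 of the 26 members, against 39.5% of all genes, and replicate 3 the lowest for 16, against 55.7%. Replicate 3 had the lowest depth of all 29 libraries, 0.586. It was also the control with the lowest stromal sum and was low for Cldn5 (5.73 FPKM), Sox18 (0.668) and Kdr (0). The part of stromal or vessel cells in the control values was not tested. In rEC replicate 3, Cldn5 was at 255 and Sox18 at 10.6 beside a stromal sum of 7.92 FPKM.

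Other genes of vessel biology were counted the same way, in FGRS culture against control LKS-SLAM, where 31.7% of all genes were lower and 17.1% higher. Of 20 transcription regulators shared by endothelium and blood, 16 were tested and 12 were lower than in control LKS-SLAM, with 0 higher: Gata2 (-4.10, SE 0.45), Klf2 (-3.64, SE 0.70), Mecom (-3.08, SE 0.55) and Tal1 (-3.03, SE 0.25) fell the most. Gata2, a stem cell and endothelial factor, was at 253, 267 and 163 FPKM in control and 23.3, 7.34 and 10.0 in culture. Of 14 angiogenic ligands and co-receptors tested, 6 were lower and 2 higher, shares near those of all genes. Angpt1, the ligand that activates Tek, was at 167, 152 and 135 in control and 30.3, 7.24 and 7.36 in culture (-3.56, SE 0.46), with Tnfsf10 (-3.05, SE 0.56) and S1pr1 (-2.41, SE 0.58) also lower. Nrp1, a VEGF and semaphorin co-receptor, was at 2.05, 0.916 and 0.715 in control and 12.5, 12.3 and 16.2 in culture (2.76, SE 0.45), and stood at 15.03 and 14.2 in control myeloid cells.

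Of 13 Notch, BMP and arteriovenous genes tested, 9 were lower and 1 higher in culture. Id3 (-3.45, SE 0.54), Jag2 (-2.66, SE 0.59), Smad7 (-2.20, SE 0.58) and Id1 (-2.02, SE 0.63) had the largest drops, and Id1 and Id3 are targets of BMP signalling. Id1 and Id3 were also the 2 genes of these 4 lists called lower in rEC than in control LKS-SLAM (-2.58, SE 0.63, adjusted p = 0.0382 for Id1 and -2.52, SE 0.54, adjusted p = 0.0164 for Id3). Id1 was at 102, 85.7 and 13.1 FPKM in control and 13.4, 1.42 and 15.7 in rEC, so that control replicate 3 lay within the rEC range. The stromal sums of the same libraries were 166, 284 and 20.1 FPKM in control and 15.1, 5.11 and 7.92 in rEC, and 2 of 7 stromal markers tested were lower in rEC. The part of stromal cells in the Id1 and Id3 values was not tested. Of 33 further endothelial genes tested, 17 were lower and 6 higher in culture: Tal1, which is in 2 of the lists, Myct1 (-2.92, SE 0.51) and Jam2 (-2.69, SE 0.68) were lower, and Pdpn (2.70, SE 0.44), which lymphatic endothelium and some macrophages carry, was listed at 0 in every control and stood at 0.650, 10.5 and 13.4 in culture. Over the 4 lists the medians were -1.52, -0.37, -1.22 and -0.88 in the order given, against -0.19 over all genes.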

How the data were processed

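RNA of 30 mouse libraries was analysed. The deposited values are FPKM per gene symbol, made by the authors with mm10, and, per the submitters' processing notes, Cufflinks 2.2.1, TopHat2 2.1.0, Trimmomatic 0.36, FastQC 0.11.5 and bcl2fastq 2.17 were used, with no role or setting given. Counting was from non-stranded libraries, per the labels' protocols, so a gene and an overlapping antisense transcript cannot be told apart. FPKM hold no count totals, so limma 3.58.1 (R 4.3.3) was fitted to log2(FPKM + 1), with 1 mean per group over 29 libraries (18 residual degrees of freedom) and a trended prior, for genes with at least 1 FPKM in at least 2 libraries, at an adjusted p of 0.05. Relative depth came from the steps of low values. The fit was tested on simulated data. The library titled as clone 47G1 B cells but annotated as wild type was left out of all comparisons.

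The members and lists were chosen with earlier results of these data known. Members with a group mean of 1 FPKM are given per library, up to 12 called members per comparison with statistics, and up to 4 called genes of other lists. The markers named by level and the member details singled out in the text were chosen after their values were seen. Alternatives were a pseudocount of 0.1, a filter at 5 FPKM or none, quantile normalisation, array quality weights, a fit of only the groups compared, a replicate block, and leaving out libraries.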

Additional observations from a re-analysis of the deposited data

How the results depend on the processing

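No called member changed direction in any alternative. Of 1056 values of called members recomputed under alternatives, 1010 kept their side of the threshold and 46 lost it. A member below a filter has no value there. Of the 19 members called between FGRS culture and control LKS-SLAM, 12 had a value and passed in every alternative, as did 5 of 18 against rEC LKS-SLAM, 6 of 8 against control myeloid cells and 15 of 23 between control LKS-SLAM and blood. Leaving out 1 library from a group of 3 gave 16 to 19, 15 to 19, 7 to 7 and 19 to 23 called members in these comparisons. Over all genes the counts were 5522 to 6743, 4671 to 8627, 7706 to 7742 and 7514 to 8739 in that order. For rEC against control LKS-SLAM the same step gave 0 to 6 members, beside 101 to 1256 genes in all. For the difference between cell types it gave 0 to 1, beside 31 to 347 genes. Myeloid and CD4 groups, where only 1 library would be left, are not in these ranges.

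Counts of called members that moved by over 1.5 times were as follows. FGRS culture against rEC LKS-SLAM went from 18 to 5 (of 21 tested) with only the groups compared, a fit with fewer libraries. The share of all genes called went from 45% to 7.12% there. FGRS culture against control myeloid cells went from 8 to 15 with a pseudocount of 0.1 (60.6% of all genes called), 17 with array weights (76.3%) and 15 without the 2 libraries that stand apart (66.3%). rEC against control LKS-SLAM went from 0 to 1 with no filter (Cdh5), 12 with array weights (44.3% of all genes, 6240) and 7 without those 2 libraries (11.1%). The difference between cell types went from 0 to 7 with array weights (35.1% of all genes) and to 1 (Aqp1) without those 2 libraries (3.94%). The estimate of array weights stopped before it converged. The cause was not tested. Quantile normalisation moved the share of higher calls over all genes from 35.1% to 50.7% for FGRS culture against control LKS-SLAM, from 65.0% to 50.5% against control myeloid cells, from 5.38% to 43.6% for rEC against control LKS-SLAM and from 12.6% to 27.8% in CD8 cells. It moved the median of all genes from -0.19 to 0.03, 0.25 to -0.01 and -0.05 to 0.04 in the first 3. The count over all genes ranged from 0, with only the groups compared, to 6240 for rEC against control LKS-SLAM and from 5522 to 10144 for FGRS culture against control LKS-SLAM.

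The pairing of replicate numbers was checked in the 4 comparisons whose groups share at least 2 of them (the rEC CD8 titles number only the secondary libraries). No correlation between the deviations of same-numbered libraries from their group means was over 0.1. These correlations ran from -0.09 to 0.07 for FGRS culture and control LKS-SLAM, were 0.08 in myeloid cells, and ran from -0.03 to -0.01 for FGRS culture and control myeloid cells and from -0.05 to 0.09 for control LKS-SLAM and the control blood groups. Deviations from means of 2 or 3 libraries are tied to each other. In myeloid cells, with 2 libraries per group, differently numbered pairs mirror the value (-0.08) by construction. The check therefore cannot show that pairing is absent. With a replicate block 19 members were called between FGRS culture and control LKS-SLAM (6799 genes in all), 0 between rEC and control myeloid cells (40 genes), 7 between FGRS culture and control myeloid cells (7689 genes, Esam lost) and 23 between control LKS-SLAM and blood (8595 genes). The block was added after seeing the data for the last 2.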

Other observations

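The library titled as primary B220+ cells of clone 47G1 and annotated as wild type belongs to no group. Its Pecam1 level was 82.4 FPKM and its Icam2 level 146, both within the range of the control and rEC B cell libraries. Cd93 was at 2.67, Eng at 0.0963 and Cdh5 at 0.188, and 16 of the 32 members were listed at 0.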
